A study of Sus scrofa with 8 samples.

Results

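The myostatin, activin and TGF-beta axis was described in cultured pig muscle cells through 10 genes: the ligands MSTN, INHBA, TGFB1, TGFB2 and TGFB3, the receptors ACVR2A, ACVR2B, TGFBR1 and TGFBR2, and the ligand trap FST. They were taken by gene symbol from an expression table of 25285 genes. By symbol alone 9 of the 10 were found. The 10th, ACVR2A, is entered as ACVR2 under an Ensembl identifier that the identifier table pairs with ACVR2A, and that entry was used. The study sequenced RNA of primary skeletal muscle cells of pigs of the strain LYD, as the labels give it, in 2 states, after differentiation in culture and before it. There were 4 differentiated libraries and 4 undifferentiated ones, 2 from females and 2 from males in each state. The protocol calls the cells MuSCs. The labels name no treatment, genotype, age, time in culture or number of animals, and nothing says whether replicate libraries came from separate animals, so that p-values here measure only the spread between these libraries.

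Ligands of this family bind pairs of type II and type I receptor kinases, which phosphorylate SMAD proteins that enter the nucleus. Myostatin and the activins use ACVR2A or ACVR2B as type II receptors and act through SMAD2 and SMAD3, while the TGF-beta ligands use TGFBR2 together with TGFBR1. In skeletal muscle, myostatin is known as a secreted brake on muscle mass, follistatin binds and blocks myostatin and activins, and TGF-beta is known to hold back myoblast differentiation and to drive matrix production.

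Levels are given as FPKM, which divides a gene's fragments by transcript length and by library size. Comparisons between genes therefore depend on the annotated length of each entry. The TGFBR2 entry spans 2917 bp and the COL1A1 entry 526 bp, and TGFBR1 is split over 2 entries. Spans here run from start to end on the genome and are not transcript lengths. Values of single libraries follow the order female 1, female 2, male 1, male 2. The labelled state was visible in 5 myotube markers (MYH3, ACTA1, CKM, TNNC2 and MYL1), whose summed level was 11063 to 16376 FPKM in differentiated libraries and 7.69 to 16.4 FPKM in undifferentiated ones. The myogenic markers MYF5, MYOD1, MYOG, DES and CDH15 summed to 2096 to 3021 FPKM in differentiated and 708 to 1134 FPKM in undifferentiated libraries. The sum joins opposite directions. MYOG, DES and CDH15 were higher in every differentiated library than in any undifferentiated one, while MYF5 and MYOD1 were lower. MYF5 had 50.9 to 108 FPKM in differentiated and 221 to 315 FPKM in undifferentiated libraries, and MYOD1 80.1 to 105 FPKM and 156 to 221 FPKM. No entry under PAX7, the satellite cell marker, was used here. The 4 endothelial markers summed to 2.56 to 7.53 FPKM in differentiated and 2.25 to 6.31 FPKM in undifferentiated libraries. Most of each sum was PECAM1, while VWF, KDR and TEK did not exceed 0.576, 0.0878 and 0.279 FPKM in any library. Of 5 immune markers CD14 had the highest level in undifferentiated libraries, with 1.74 to 2.46 FPKM in differentiated and 11.5 to 15.2 FPKM in undifferentiated cells. CD3E went the other way at low levels, with 0.469 to 2.41 FPKM in differentiated and 0 to 0.129 FPKM in undifferentiated libraries. CD68 overlapped between the states, PTPRC did not exceed 0.199 FPKM and CSF1R did not exceed 0.0789 FPKM. Read depth is not given in the table. Relative depth, estimated from the steps of low values with differentiated female 1 set to 1, was 1 to 1.67 in differentiated and 1.72 to 2.31 in undifferentiated libraries, so low levels were measured less finely in differentiated cells.

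Differentiated male 1 stood apart from the other differentiated libraries. Its 7 fibroblast markers summed to 1149 FPKM. The sums were 325 to 757 FPKM in the other differentiated libraries and 298 to 646 FPKM in undifferentiated ones. All 7 were higher in differentiated male 1 than in any other differentiated library. COL1A1, at 783 FPKM, and COL1A2, at 330 FPKM, made up most of the sum in this library. Its 5 proliferation markers summed to 70.4 FPKM, against 20.2 to 28.8 FPKM in the other differentiated libraries and 200 to 292 FPKM in undifferentiated cells. Counts that change without this library are given beside the results below. In whole cultures, fewer cells of a type and less RNA per cell cannot be told apart.

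Of the 10 genes, 4 rose in differentiated cells (MSTN, TGFB1, TGFB3 and ACVR2B), 1 fell (TGFBR2), and 3 did not pass the test (TGFB2, ACVR2A and TGFBR1). The other 2, INHBA and FST, were below the mean of 1 FPKM required for testing. Without differentiated male 1, 3 rose and 1 fell. Over all 12963 tested genes 18.0% rose and 31.9% fell by the same rule, a limma adjusted p under 0.05. The median log2 change of the 8 tested members was 0.45, against -0.18 over all tested genes. Changes are differences of log2(FPKM + 1), differentiated minus undifferentiated, averaged over the sexes, which understate the fold of low genes. The levels of the 8 libraries did not overlap between the states for 2 of the 8 tested members, ACVR2B and TGFBR2, while 47.3% of all tested genes were separated in this way.

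**Figure D1:**
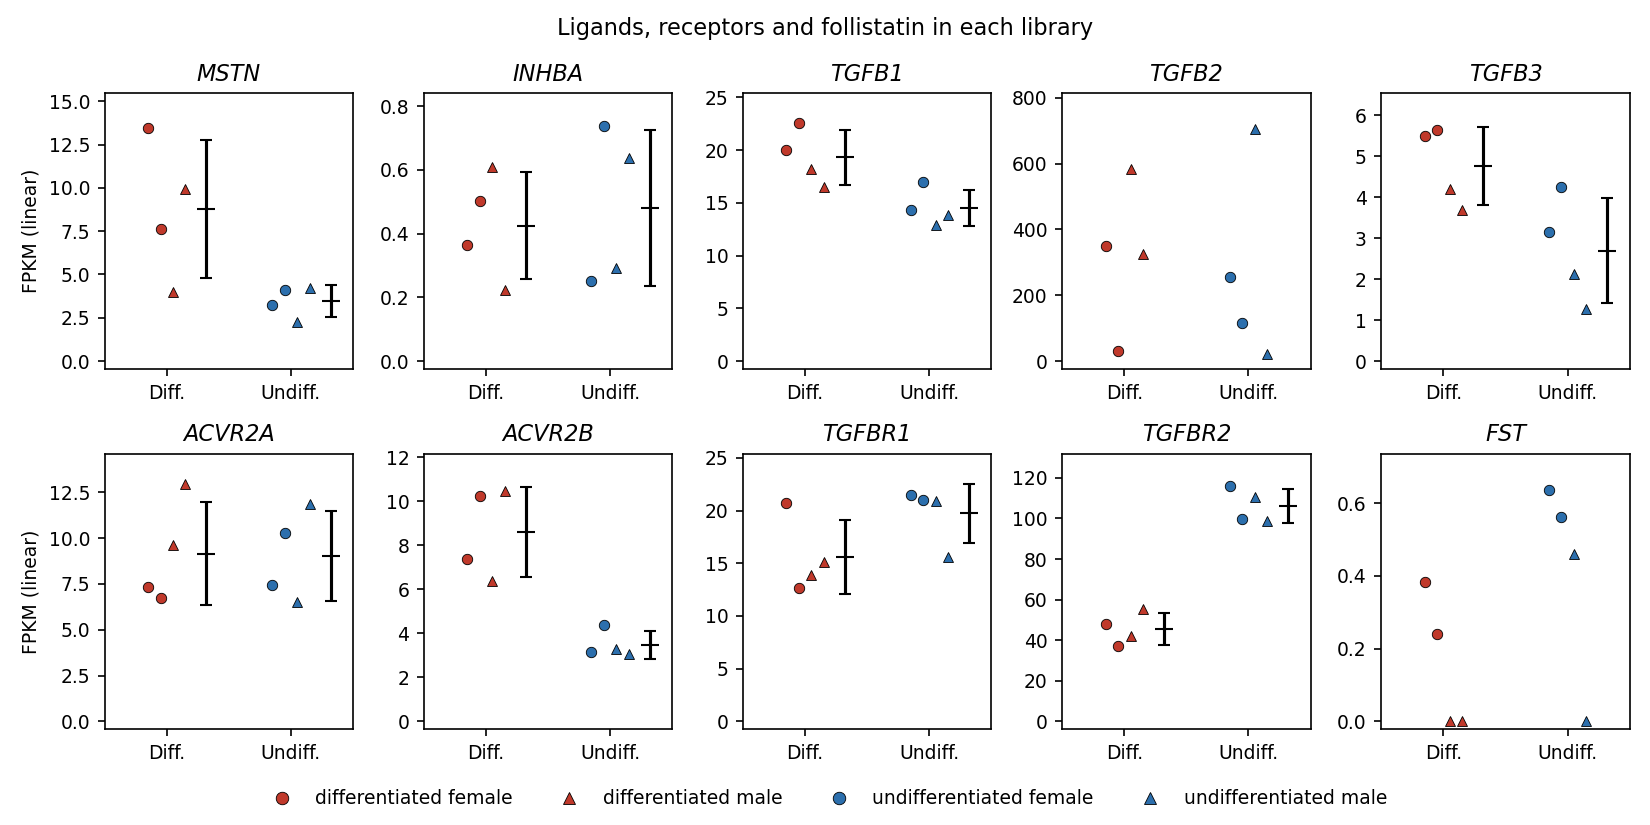
FPKM of each of the 10 genes in the 8 libraries, a linear axis for each gene, differentiated libraries to the left of undifferentiated ones. Points are libraries, and bars are the mean and SD of 4 libraries, drawn for all but TGFB2 and FST. ACVR2B is higher and TGFBR2 lower in all 4 differentiated libraries, while TGFB2 ranges from 22.4 to 705 FPKM.

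MSTN encodes myostatin (ENSSSCG00000016047, chr15:105734307-105739335, minus strand, Sscrofa10.2). Its level was 13.5, 7.65, 3.99 and 9.94 FPKM in differentiated libraries and 3.22, 4.13, 2.24 and 4.24 FPKM in undifferentiated ones. In 3 of the 4 differentiated libraries it exceeded every undifferentiated library, and differentiated male 1 lay inside the undifferentiated range. The means were 8.77 ± 3.99 FPKM in differentiated and 3.46 ± 0.931 FPKM in undifferentiated cells (SD, n = 4 each). MSTN rose by 1.06 ± 0.33 on the log2 scale (SE), with a limma adjusted p of 0.0378. Without differentiated male 1, the library with the high fibroblast and proliferation markers, the change was 1.34 with a limma adjusted p of 0.0176. The call was lost when any of 5 other libraries was left out, with limma adjusted p of 0.109 and 0.0843 without differentiated female 1 and male 2, and 0.108, 0.0764 and 0.112 without undifferentiated female 1, female 2 and male 1. MSTN also varied more within groups than most genes, with a residual SD of 0.55 on the log2 scale that 13.9% of tested genes exceeded.

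INHBA encodes the beta A chain that forms activin A as a dimer (ENSSSCG00000021865, chr18:57997858-58009109, plus strand). It was low in every library. Differentiated libraries had 0.363, 0.504, 0.609 and 0.224 FPKM, and undifferentiated ones 0.251, 0.737, 0.291 and 0.638 FPKM. The states overlapped throughout. Tested without the filter on low values, among 19990 genes, its log2 change was -0.05 ± 0.17 (SE; limma adjusted p = 0.849).

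TGFB1, TGFB2 and TGFB3 encode the 3 TGF-beta ligands. TGFB1 (ENSSSCG00000003017, chr6:45127027-45139176, minus strand) had 20.0, 22.6, 18.2 and 16.5 FPKM in differentiated libraries and 14.3, 17.0, 12.9 and 13.8 FPKM in undifferentiated ones. Only undifferentiated female 2 reached into the differentiated range, just above differentiated male 2. The means were 19.3 ± 2.61 FPKM in differentiated and 14.5 ± 1.74 FPKM in undifferentiated cells (SD, n = 4 each), and the rise was 0.39 ± 0.10 on the log2 scale (SE; limma adjusted p = 0.0196). It was among the steadier genes within groups, with a residual SD of 0.12 that 85.4% of tested genes exceeded. The call was lost without differentiated female 2 (limma adjusted p = 0.0601), differentiated male 1 (0.0535), undifferentiated female 1 (0.0635) or undifferentiated male 1 (0.0601), with changes of 0.33 to 0.36.

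TGFB3 (ENSSSCG00000002385, chr7:105178633-105206982, minus strand) had 5.49, 5.65, 4.21 and 3.70 FPKM in differentiated libraries and 3.15, 4.24, 2.12 and 1.27 FPKM in undifferentiated ones. Within each sex both differentiated libraries were above both undifferentiated ones, and the overlap came from differentiated male libraries against undifferentiated female 2. TGFB3 averaged 4.76 ± 0.957 FPKM in differentiated and 2.70 ± 1.29 FPKM in undifferentiated cells (SD, n = 4 each). It rose by 0.70 ± 0.16 on the log2 scale (SE; limma adjusted p = 0.014), and by 0.66 without differentiated male 1 (limma adjusted p = 0.041). With both sexes under 1 mean per state the call was lost (limma adjusted p = 0.0598).

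TGFB2 (ENSSSCG00000010816, chr10:10354223-10478457, plus strand) had the highest mean level of the 10 genes and the widest spread. Differentiated libraries had 350, 30.7, 583 and 325 FPKM, and undifferentiated ones 255, 117, 705 and 22.4 FPKM. The highest library was male 1 in both states, and the lowest was female 2 in differentiated and male 2 in undifferentiated cells. The log2 change was 0.52 ± 1.25 (SE; limma adjusted p = 0.754), with a 95% interval of -2.54 to 3.58 that leaves large changes in either direction undetected. Its residual SD of 2.19 on the log2 scale, against a median of 0.24 over tested genes, was exceeded by 2.15% of them. An entry named 7SK, 303 bp long on the opposite strand, lies inside the TGFB2 span, 1205 bp before its 3′ end. It was listed at 7.21 FPKM in differentiated male 1 and at 0 in the other 7 libraries. Whether counting used strand is not given in the sources used here, so reads of the 2 entries cannot be told apart.

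Because TGFB2 was so high, it made up 52.1% to 96.3% of the summed FPKM of the 3 TGF-beta genes in differentiated libraries and 59.7% to 97.9% in undifferentiated ones. TGFB1 made up 3.00% to 38.3% in differentiated and 1.79% to 36.9% in undifferentiated libraries, and TGFB3 0.695% to 9.60% in differentiated and 0.294% to 3.39% in undifferentiated libraries. These shares followed TGFB2: they were highest for TGFB1 in differentiated female 2 and undifferentiated male 2, the libraries where TGFB2 was lowest.

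ACVR2B (ENSSSCG00000011257, chr13:25421870-25450846, plus strand), a type II receptor that binds myostatin and activins, had 7.36, 10.24, 6.37 and 10.5 FPKM in differentiated libraries and 3.17, 4.40, 3.28 and 3.07 FPKM in undifferentiated ones. Every differentiated library was above every undifferentiated one. The means were 8.61 ± 2.05 FPKM in differentiated and 3.48 ± 0.622 FPKM in undifferentiated cells (SD, n = 4 each). ACVR2B rose by 1.09 ± 0.20 on the log2 scale (SE), with a limma adjusted p of 0.00534. The call held in all 15 alternative settings, with changes of 0.93 to 1.27.

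ACVR2A (ENSSSCG00000015669, chr15:3828378-3911122, minus strand), the other type II receptor of these ligands, had 7.31, 6.76, 9.61 and 12.9 FPKM in differentiated libraries and 7.47, 10.3, 6.50 and 11.8 FPKM in undifferentiated ones. The ranges coincided, with replicates of a group lying as far apart as the states. It averaged 9.16 ± 2.81 FPKM in differentiated and 9.02 ± 2.47 FPKM in undifferentiated cells (SD, n = 4 each), a log2 change of 0.01 ± 0.21 (SE; limma adjusted p = 0.964). The 95% interval of -0.50 to 0.53 does not reach the estimate for ACVR2B.

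Set against each other in a library, the ratio of ACVR2A to ACVR2B was 0.993, 0.660, 1.51 and 1.24 in differentiated libraries and 2.36, 2.33, 1.98 and 3.86 in undifferentiated ones. The states did not overlap in this ratio, which was not tested. Undifferentiated libraries held more ACVR2A than ACVR2B by FPKM, while ratios in differentiated libraries lay on either side of 1.

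TGFBR2 (ENSSSCG00000011226, chr13:18707605-18710521, minus strand), the type II receptor of TGF-beta, was the 1 member that fell. Differentiated libraries had 48.0, 37.3, 41.9 and 55.6 FPKM, and undifferentiated ones 116, 99.9, 111 and 98.5 FPKM. No library of one state came near the other state. The means were 45.7 ± 7.93 FPKM in differentiated and 106 ± 8.38 FPKM in undifferentiated cells (SD, n = 4 each). TGFBR2 fell by 1.21 on the log2 scale (SE 0.14, limma adjusted p = 0.000951), and it was called in all 15 alternatives, with changes of -1.31 to -1.0. The annotated span of this entry is 2917 bp.

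TGFBR1 (ENSSSCG00000005382, chr1:269089548-269149052, plus strand), the type I receptor, had 20.7, 12.7, 13.9 and 15.2 FPKM in differentiated libraries and 21.5, 21.0, 20.9 and 15.6 FPKM in undifferentiated ones. In differentiated cells 3 libraries were below every undifferentiated one, and differentiated female 1 was among the undifferentiated values. It averaged 15.6 ± 3.55 FPKM in differentiated and 19.8 ± 2.79 FPKM in undifferentiated cells (SD, n = 4 each), and the log2 change of -0.34 ± 0.18 (SE) did not pass the test (limma adjusted p = 0.161). Without differentiated female 1 the change was -0.50 and passed it (limma adjusted p = 0.0353).

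A second TGFBR1 entry, on the unplaced scaffold JH118626.1 (ENSSSCG00000023995), had 1.27, 1.11, 1.70 and 1.32 FPKM in differentiated and 4.02, 2.79, 1.37 and 2.60 FPKM in undifferentiated libraries. How reads were shared between the 2 entries is not given in the sources used here. Their summed level changed by -0.40 on the log2 scale (limma adjusted p = 0.0851).

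The ratio of TGFBR1 to TGFBR2 was 0.431, 0.339, 0.331 and 0.273 in differentiated libraries and 0.186, 0.211, 0.189 and 0.158 in undifferentiated ones, again without overlap. TGFBR2 had the higher FPKM of the receptor pair in every library. The size of this ratio depends on the annotated transcript length of each entry, which is not given in the sources used here. The genomic spans, 2917 bp for TGFBR2 and 59505 bp for TGFBR1, are not those lengths. The ratio therefore does not rank the abundance of the 2 receptors. With both TGFBR1 entries summed, the ratio was 0.296 to 0.457 in differentiated and 0.185 to 0.238 in undifferentiated libraries.

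**Figure D2:**
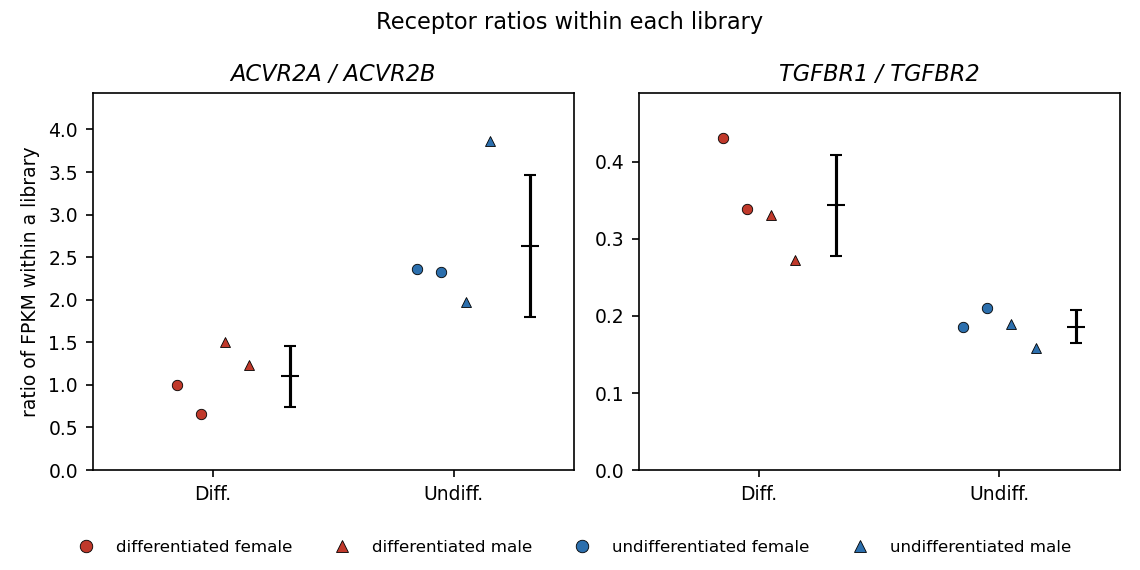
Ratio of FPKM within each library for ACVR2A to ACVR2B (left) and TGFBR1 to TGFBR2 (right), on linear axes from 0, with differentiated libraries to the left of undifferentiated ones in each panel. Points are libraries and bars are the mean and SD of 4 libraries. The differentiated libraries lie at 0.660 to 1.51 against 1.98 to 3.86 in undifferentiated ones for the activin receptors, and at 0.273 to 0.431 against 0.158 to 0.211 for the TGF-beta receptors.

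FST encodes follistatin (ENSSSCG00000016892, chr16:34778435-34785305, plus strand), the secreted trap for activins and myostatin. Differentiated libraries were listed at 0.384, 0.239, 0 and 0 FPKM, and undifferentiated ones at 0.637, 0.561, 0.460 and 0 FPKM. Both differentiated male libraries and undifferentiated male 2 were thus listed at 0. The 2 differentiated values above 0 differ by a factor of 1.6, and the relative depths of those libraries by 1.62, which is the difference that an equal number of fragments in both would give. Tested without the filter on low values, the log2 change was -0.28 ± 0.14 (SE; limma adjusted p = 0.178). A difference between the states was not detectable at this depth.

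FST was below MSTN in every library. Its ratio to MSTN was 0.0284, 0.0313, 0 and 0 in differentiated libraries and 0.198, 0.136, 0.205 and 0 in undifferentiated ones. Its ratio to INHBA was 1.06, 0.476, 0 and 0 in differentiated libraries and 2.53, 0.761, 1.58 and 0 in undifferentiated ones. These ratios rest on a few fragments of FST and were not tested.

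An order of genes by mean FPKM depends on the annotated length of each entry. By this measure, the order in differentiated cells was TGFB2, TGFBR2, TGFB1, TGFBR1, ACVR2A, MSTN, ACVR2B, TGFB3, INHBA and FST. In undifferentiated cells it was TGFB2, TGFBR2, TGFBR1, TGFB1, ACVR2A, ACVR2B, MSTN, TGFB3, INHBA and FST. In differentiated cells ACVR2A, MSTN and ACVR2B, at 9.16, 8.77 and 8.61 FPKM, lay within their spread of each other, as did TGFB1 and TGFBR1 at 19.3 and 15.6 FPKM. In undifferentiated cells ACVR2B and MSTN, at 3.48 and 3.46 FPKM, lay within their spread of each other and of TGFB3 at 2.70 FPKM. TGFB2 and TGFBR2 overlapped in range in both states despite their difference in mean.

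**Figure D3:**
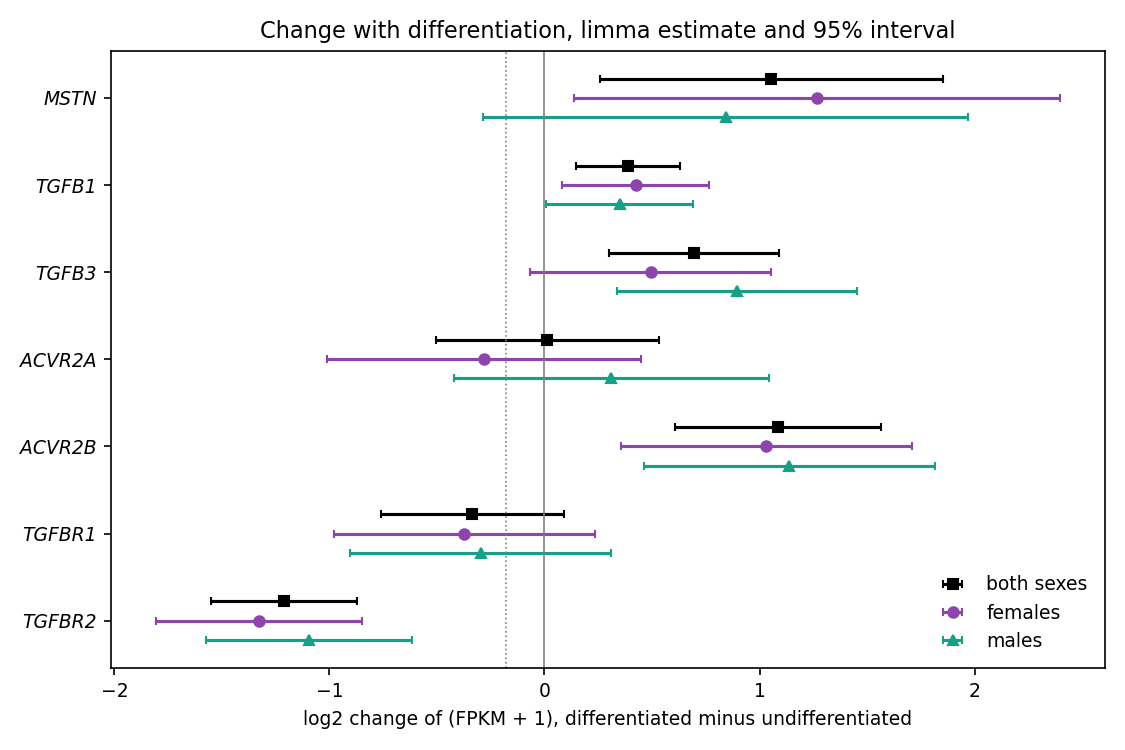
Log2 change of log2(FPKM + 1), differentiated minus undifferentiated, with 95% intervals from limma, averaged over the sexes, in females and in males, for the tested genes other than TGFB2. The dotted line is the median of all tested genes, -0.18. ACVR2B lies above 0 and TGFBR2 below 0 in all 3 contrasts.

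Within females alone 2 members were called, against 35.8% of all tested genes: ACVR2B, with a log2 change of 1.03 (limma adjusted p = 0.0319), and TGFBR2, with -1.33 (limma adjusted p = 0.00416). Within males 3 were called, against 33.0% of all tested genes. These were ACVR2B at 1.14 (limma adjusted p = 0.0251), TGFB3 at 0.90 (limma adjusted p = 0.0294) and TGFBR2 at -1.10 (limma adjusted p = 0.00933). MSTN changed by 1.27 in females (limma adjusted p = 0.0786) and 0.84 in males (limma adjusted p = 0.21), neither past the threshold. TGFBR2 in females was called in all 14 alternatives. ACVR2B in females was lost in 7 of 14 (limma adjusted p of up to 0.15) and ACVR2B in males in 3 of 14 (up to 0.102). TGFBR2 in males was lost without undifferentiated male 1 (limma adjusted p = 0.0554), and TGFB3 in males was lost without differentiated male 1 (limma adjusted p = 0.1), differentiated male 2 (0.0779) or undifferentiated male 2 (0.119).

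The effect of the state in females minus that in males was called for 0 of the 8 tested members and for 0.0231% of all tested genes, 3 genes. At an unadjusted p under 0.05 it counted 0 of these members and 782 of the 12963 tested genes. The widest interval was that of TGFB2, from -8.60 to 3.63, and the narrowest that of TGFB1, from -0.41 to 0.56, and differences within these intervals could not be resolved.

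Females against males, averaged over the states, were called for 0 members and for 0.0849% of all tested genes, 11 genes, by limma. At an unadjusted p under 0.05 the counts were 2 of the 8 tested members and 1261 of the 12963 tested genes. The 2 members were TGFB3, with a log2 difference of 0.61 female minus male (limma adjusted p = 0.419), and TGFB1, with 0.24 (limma adjusted p = 0.51). TGFB3 was higher in females than in males in both states: 5.49 and 5.65 FPKM in differentiated female against 4.21 and 3.70 FPKM in differentiated male libraries, and 3.15 and 4.24 FPKM in undifferentiated female against 2.12 and 1.27 FPKM in undifferentiated male libraries.

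Of the other genes of the pathway, 51 were tested, of which 11 rose, 24 fell and 16 did not pass, with a median log2 change of -0.33. That is 21.6% risen and 47.1% fallen, against 18.0% and 31.9% of all tested genes. Without differentiated male 1, 8 rose and 24 fell. They were listed in 6 groups by role. Each count below is by limma adjusted p over all tested genes.

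The group of latent complex and activation genes, which store TGF-beta in the matrix or release it, had 11 of 13 tested genes fall, 1 rise and 1 not pass, with a median of -1.0. That is 7.69% risen and 84.6% fallen, against 18.0% and 31.9% of all tested genes, whose median was -0.18. LTBP2, a latent TGF-beta binding protein family member of elastic fibres, fell to 16.8, 13.0, 41.0 and 20.9 FPKM in differentiated libraries, against 119, 71.0, 109 and 84.9 FPKM in undifferentiated ones, a log2 change of -2.12 ± 0.27 (SE; limma adjusted p = 0.00144). The highest differentiated value was that of male 1, still below every undifferentiated library. BMP1, a procollagen protease that also cleaves latent complexes and the myostatin propeptide, averaged 21.2 ± 4.08 FPKM in differentiated and 95.7 ± 16.5 FPKM in undifferentiated cells (SD, n = 4 each), a change of -2.12 (limma adjusted p = 0.000406). Falls were also called for LTBP3 (-1.99), the integrin chains ITGAV (-1.66), ITGB5 (-1.57) and ITGB8 (-1.0), the protease genes TLL1 (-1.55), MMP14 (-0.75) and FURIN (-0.72), thrombospondin THBS1 (-0.80) and fibrillin FBN1 (-0.38), the last of which was lost under median-ratio scaling (limma adjusted p = 0.102). TLL1, related to BMP1, had 0.224, 0.148, 1.21 and 1.23 FPKM in differentiated and 5.37, 1.19, 4.91 and 5.20 FPKM in undifferentiated libraries.

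ITGB6, the partner of ITGAV in an integrin that activates latent TGF-beta and is best known from epithelia, went the other way. It had 16.6, 16.2, 5.94 and 15.4 FPKM in differentiated libraries and 1.47, 0.622, 0.783 and 1.04 FPKM in undifferentiated ones. All 4 differentiated libraries were above all undifferentiated ones, with differentiated male 1 the lowest of them, and the change was 2.80 ± 0.30 on the log2 scale (SE; limma adjusted p = 0.000764). LTBP1, a latent TGF-beta binding protein, had 1.82 to 6.53 FPKM in differentiated and 2.70 to 4.56 FPKM in undifferentiated libraries and did not pass the test.

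Among the other receptors, 3 of 8 tested rose, 1 fell and 4 did not pass, and without differentiated male 1, 2 rose and 2 fell. The shares with all libraries were 37.5% risen and 12.5% fallen, against 18.0% and 31.9% of all tested genes. BMPR2, the type II receptor of BMPs, had 113, 117, 106 and 128 FPKM in differentiated and 58.7, 75.4, 53.2 and 55.4 FPKM in undifferentiated libraries, a rise of 0.93 ± 0.11 (SE; limma adjusted p = 0.00121). ACVR1, a type I receptor of BMPs and activins, rose by 0.93 (limma adjusted p = 0.000605), with 35.4 ± 2.27 FPKM in differentiated and 18.2 ± 1.97 FPKM in undifferentiated cells (SD, n = 4 each). BMPR1A, a type I receptor of BMPs, rose by 0.36 (limma adjusted p = 0.0349), a call lost in 6 of the 8 fits that leave out 1 library, with limma adjusted p of up to 0.101. BAMBI, a decoy receptor without a kinase domain, fell by 1.02 on the log2 scale (limma adjusted p = 0.00879) at levels of 0.603 ± 0.298 FPKM in differentiated and 2.26 ± 0.626 FPKM in undifferentiated cells (SD, n = 4 each). ACVR1B, a type I receptor of activins and myostatin, had 5.12 to 6.46 FPKM in differentiated and 6.13 to 7.52 FPKM in undifferentiated libraries. It did not pass (log2 change -0.25, limma adjusted p = 0.14). The type II receptors ACVR2B and BMPR2 thus rose while TGFBR2 fell.

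Of the other ligands, 3 were tested, of which 1 rose, 1 fell and 1 did not pass, while 18.0% of all tested genes rose and 31.9% fell. BMP4 averaged 13.0 ± 2.44 FPKM in differentiated and 6.68 ± 2.43 FPKM in undifferentiated cells (SD, n = 4 each), a rise of 0.90 (limma adjusted p = 0.0335) that was lost without any of 6 libraries, with limma adjusted p of up to 0.101, differentiated male 1 (0.0595) among them. BMP6 fell by 0.72 on the log2 scale (limma adjusted p = 0.0132), with 9.78 ± 2.04 FPKM in differentiated and 16.7 ± 2.39 FPKM in undifferentiated cells (SD, n = 4 each). GDF11, the closest relative of myostatin, had 3.38 to 5.07 FPKM in differentiated and 4.60 to 7.13 FPKM in undifferentiated libraries and did not pass (log2 change -0.27, limma adjusted p = 0.19).

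Of the extracellular binders, 5 were tested, of which 1 rose and 4 did not pass. The share risen was 20.0%, against 18.0% of all tested genes. The gene that rose was CHRD, chordin, a BMP antagonist, with 3.37 ± 1.05 FPKM in differentiated and 0.974 ± 0.384 FPKM in undifferentiated cells (SD, n = 4 each), a change of 1.14 (limma adjusted p = 0.00989). WFIKKN1, a protein that binds myostatin, had 2.44, 2.02, 0.316 and 1.94 FPKM in differentiated and 0.635, 0.643, 1.21 and 1.95 FPKM in undifferentiated libraries and did not pass (limma adjusted p = 0.449). The small proteoglycans DCN, BGN and FMOD, matrix proteins that bind TGF-beta, were each highest in differentiated male 1, at 21.3, 204 and 19.7 FPKM, and none of them passed the test.

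Among the SMADs and their regulators, 2 of 12 tested genes rose, 4 fell and 6 did not pass. These shares, 16.7% and 33.3%, are close to the 18.0% and 31.9% of all tested genes. Without differentiated male 1, 1 rose and 3 fell. SKIL, the repressor SnoN, which is itself a target of SMAD signalling, had 41.3, 35.1, 28.9 and 48.6 FPKM in differentiated and 8.48, 9.90, 8.41 and 10.3 FPKM in undifferentiated libraries, a rise of 1.92 ± 0.18 (SE; limma adjusted p = 0.000524). SMURF2, a ubiquitin ligase for SMADs and receptors, averaged 20.6 ± 4.66 FPKM in differentiated and 63.3 ± 5.78 FPKM in undifferentiated cells (SD, n = 4 each) and changed by -1.60 (limma adjusted p = 0.000106). The inhibitory SMAD6 changed by -1.25 (limma adjusted p = 0.00958), and SMAD3 by -0.40 (limma adjusted p = 0.0404), a call lost in 11 of 15 alternatives. TGIF1, a SMAD corepressor, changed by -0.71 (limma adjusted p = 0.0101). SMAD1, a BMP SMAD, rose by 0.24 (limma adjusted p = 0.0475), a call lost in 11 of 15 alternatives. SMAD2, SMAD4, SMAD5, SMAD7, SMAD9 and SMURF1 did not pass. The entry used for SMAD3 is called SMAD2 in the table and carries the identifier that the identifier table pairs with SMAD3.

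All 10 tested target genes changed, 3 upward and 7 downward, with a median of -1.18. That is 30.0% risen and 70.0% fallen, against 18.0% and 31.9% of all tested genes, whose median was -0.18. Fewer fell without differentiated female 1 or female 2, without any 1 undifferentiated library, or with 1 mean per state. ACTA2, smooth muscle actin, had 993 to 1166 FPKM in differentiated and 8.47 to 26.1 FPKM in undifferentiated libraries, a change of 5.94 ± 0.32 (SE; limma adjusted p = 6.95e-05). TAGLN, transgelin, rose by 2.86 (limma adjusted p = 9.73e-05) and COL1A1, the collagen I alpha 1 chain, by 2.59 (limma adjusted p = 0.00232). COL1A1 was highest in differentiated male 1 at 783 FPKM, against 165 to 499 FPKM in the other differentiated libraries and 22 to 179 FPKM in undifferentiated ones. Among the genes that fell were the matricellular genes CTGF (-1.85) and TNC (-1.26), fibronectin FN1 (-2.22), the cell cycle inhibitor CDKN2B (-2.61) and the BMP targets ID1 (-3.52) and ID2 (-1.07). ID1 averaged 34.8 ± 14.9 FPKM in differentiated and 372 ± 36.7 FPKM in undifferentiated cells (SD, n = 4 each; limma adjusted p = 0.000672).

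ACTA2 is also a smooth muscle marker, and COL1A1 is also a fibroblast marker. The annotated span of the COL1A1 entry is 526 bp. COL1A2, another collagen I chain on the fibroblast list, went the other way. It had 158 to 330 FPKM in differentiated and 261 to 461 FPKM in undifferentiated libraries. Its log2 change was -0.60 (limma adjusted p = 0.0126, lost in 2 of 15 alternatives). The fibroblast markers PDGFRA, DCN and LUM did not pass. The 6 smooth muscle and pericyte markers summed to 1020 to 1220 FPKM in differentiated and 17.5 to 40.1 FPKM in undifferentiated libraries, and ACTA2 made up most of the sum in differentiated libraries. Of the others, CNN1 rose by 2.03 (limma adjusted p = 0.000421), CSPG4 by 1.49 (limma adjusted p = 0.0132) and PDGFRB by 0.95 (limma adjusted p = 0.0431, lost in 8 of 15 alternatives), and all 3 were highest in differentiated male 1. RGS5 ranged from 0 to 1.81 FPKM in differentiated and from 0 to 0.190 FPKM in undifferentiated libraries, and MYH11, the myosin that defines mature smooth muscle, did not exceed 0.0737 FPKM in differentiated or 0.0931 FPKM in undifferentiated libraries. Both were under the level required for testing. Without differentiated male 1, the counts were again 3 risen and 7 fallen target genes and 11 fallen genes of the latent complex group. Without differentiated female 1, 4 target genes fell, and without differentiated female 2, 6 fell. Without any 1 undifferentiated library, or with 1 mean per state, 5 target genes fell. In each of these fits 3 target genes rose. The calls of TNC and ID2 were each lost in 4 of 15 alternatives. The part of the fibroblast, smooth muscle and pericyte markers in the target gene values was not tested.

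**Figure D4:**
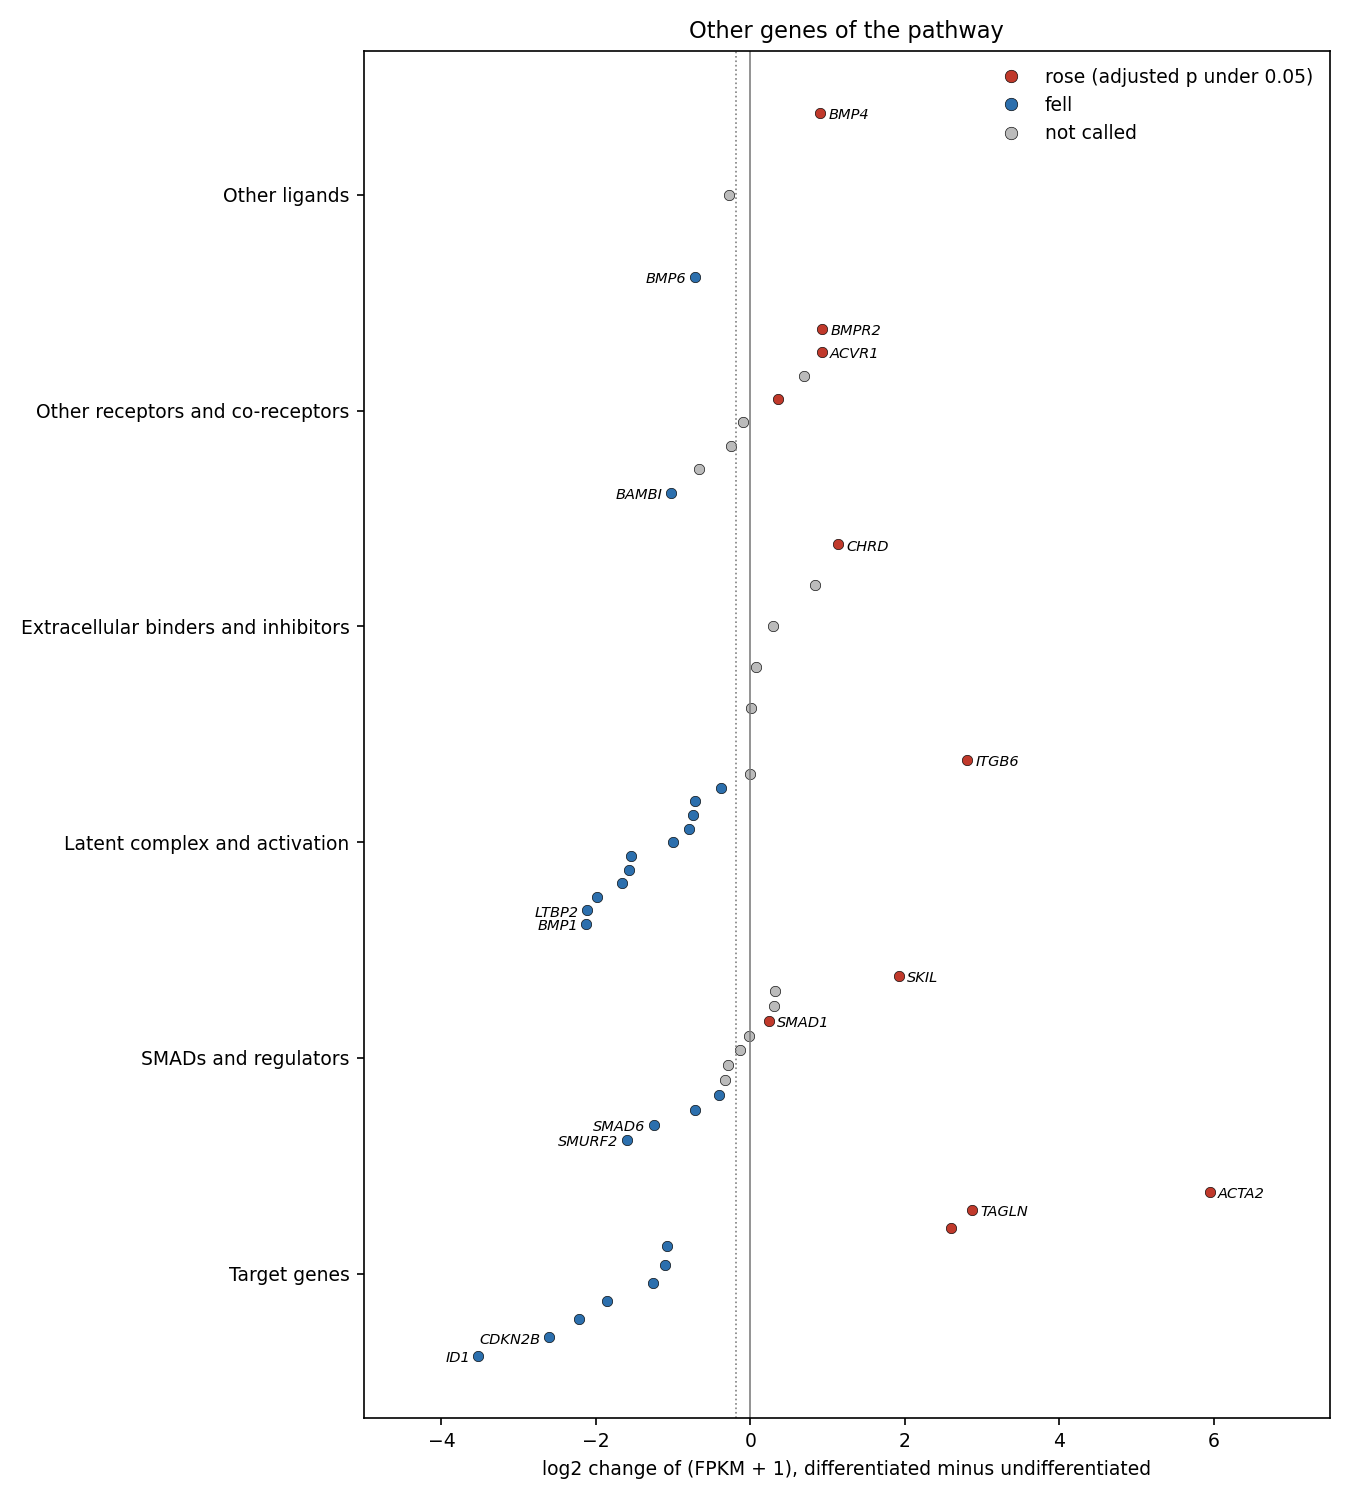
Log2 change of each tested pathway gene by role, differentiated minus undifferentiated, with genes past a limma adjusted p of 0.05 marked. The dotted line is the median of all tested genes, -0.18. In the latent complex group 11 of 13 genes are called below 0, with ITGB6 above 0 at 2.80, and the target genes spread from -3.52 to 5.94.

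The genes with the pattern most like that of a member were taken by Pearson r of log2(FPKM + 1) over the 8 libraries among tested genes with a symbol. For MSTN these were PRDM10 (0.987), GRB10 (0.982) and ZFYVE1 (0.981). GRB10, an adaptor that dampens insulin receptor signalling, averaged 59.5 ± 8.89 FPKM in differentiated and 44.1 ± 2.85 FPKM in undifferentiated cells (SD, n = 4 each). For TGFB1 they were ATPIF1 (0.985), AMIGO1 (0.982) and GALP (0.979), and for FST CTU1 (0.981), ZBTB16 (0.954) and TSN (0.952). For INHBA they were YIF1A (0.913), SNORA42 (0.910) and snoU105B (0.901). SNORA42 averaged 90290 ± 153700 FPKM and snoU105B 2336000 ± 4290000 FPKM in differentiated libraries (SD, n = 4 each). In both states the SD of these 2 entries exceeded their mean. All values of r are the highest among the 10480 tested genes with a symbol over 8 libraries of 2 states. They describe these libraries alone, and those for FST and INHBA rest on levels under 1 FPKM.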

How the data were processed

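RNA of 8 libraries was made into stranded total RNA libraries and read as 100-bp paired ends, per the labels' protocols, while the labels give the molecule as polyA RNA. The authors deposited 1 table of FPKM values. Per the submitters' processing notes, cutadapt 1.6, TopHat2 2.0.12.1, Cufflinks 2.2.1 and the genome build Sscrofa10.2 were used. Settings and the handling of reads shared between entries are not given in the sources used here.

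The deposited FPKM did not resolve into whole reads, so that the depth in reads is unknown and no count test was run. Relative depth was estimated from the steps of values under 0.6 FPKM, with a largest misfit of 0.0575 log2 over 28 pairs of libraries.

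Values were taken as log2(FPKM + 1), and the 12963 genes averaging 1 FPKM or more over the 8 libraries entered limma 3.58.1 in R 4.3.3 (eBayes with trend), with 1 mean per state and sex and all 8 libraries in the fit. Tests were two-sided, adjusted by Benjamini and Hochberg over every tested gene, and called at an adjusted p under 0.05. The script was tested on simulated data. Where a symbol had several entries, the one with the highest mean was used. Besides ACVR2A and SMAD3, the entries used for ITGB6, FBN1, TNC, CSPG4, GDF11 and MYF5 were found through the identifier table. The members and lists were chosen with earlier results of these data known. All members, and in each list the 2 largest rises and the 2 largest falls among called genes, were named by rule. Other genes were named after their values were seen. Alternatives were a pseudocount of 0.1, no filter, median-ratio scaling, quantile normalization, a replicate block, 1 mean per state, genes under 300 bp left out, each library left out in turn and summed entries. Sequences were not used here. A gene of the target list is counted but not reported here by name.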

Additional observations from a re-analysis of the deposited data

Results flagged for a closer look

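In each state, the highest or lowest of the 4 libraries was checked for a gap to its nearest neighbour whose share of the whole range exceeds Dixon's 95% critical value, for each of the 10 genes. That made 20 checks, and chance gives such a gap in about 1 in 20. It was met by 2 values, both in undifferentiated cells.

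ACVR2B was 4.40 FPKM in undifferentiated female 2, above 3.07 to 3.28 FPKM in the other undifferentiated libraries, and the gap took up 0.840 of the range. It was still below the lowest differentiated library, at 6.37 FPKM, and without it the rise of ACVR2B was 1.18 on the log2 scale (limma adjusted p = 0.0132).

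TGFBR1 was 15.6 FPKM in undifferentiated male 2, below 20.9 to 21.5 FPKM in the other undifferentiated libraries, and the gap took up 0.894 of the range. Without it the log2 change of TGFBR1, differentiated minus undifferentiated, was -0.44 (limma adjusted p = 0.128).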

How the results depend on the processing

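No called result changed direction under any alternative that was run. The estimates of ACVR2A (-0.18 to 0.21) and TGFB2 (-0.71 to 1.75), never called for the state, lay on both sides of 0. With each library left out in turn, 2 to 4 members rose and 1 to 2 fell, 1 to 3 were called in females and 1 to 3 in males. Without the filter on low values 1 member was called in females. Median-ratio scaling gave 3158 risen and 3008 fallen genes, against 2339 and 4137 as reported, and moved the median log2 change of all genes to 0.01, against -0.18, yet 4 members rose and 1 fell under it, and TGFBR2 changed by -1.0. The rise of MSTN was lost without the filter (limma adjusted p = 0.0576). Relative depth was lower in differentiated libraries, its part in the calls was not tested, and FST and INHBA lie at levels where depth limits most.

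Libraries of the same replicate number showed little shared deviation (correlation 0.068 in females and -0.026 in males). A single correlation in each sex cannot show whether libraries of the same number came from the same animal, so pairing is unknown. A replicate block gave 2206 risen and 3948 fallen genes, the same counts of 4 and 1 for members, and 3 members called in females, where MSTN passed (log2 change 1.27, limma adjusted p = 0.0464). Under the block BMP4 (0.0542) and SMAD1 (0.0711) did not pass.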
